A study of Mus musculus with 8 samples.

Results

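The Gata1 locus was examined in multipotent blood progenitors sorted as positive for Gata1, as all ATAC-seq peaks that overlap a fixed stretch of the X chromosome (mm9, chrX, 7530000 to 7565000). That stretch was set by position alone, as a window around the gene, which runs on the minus strand over about 7536400 to 7555200, so that upstream of the gene means higher coordinates. It held 5 of the 134473 peaks in the deposited table, and 3387 of those peaks lie on chromosome X. No mm9 annotation was used here, so peaks are given by position and by whether they overlap the stated gene span, without exons or introns. In the order of chromosome X genes in a RefSeq table of another build, GRCm38.p6, the protein-coding neighbours of Gata1 are Hdac6 at lower and Glod5 at higher coordinates.

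The study profiled open chromatin with Omni-ATAC-seq, in which the Tn5 transposase places sequencing adapters into accessible DNA. The 2 groups were Vwf+Gata1+ and Vwf-Gata1+ MPP2 cells from the marrow of adult C57BL/6 mice of 8 to 12 weeks. Each group had 4 libraries of 500 cells. In both groups the gate was LSK (lineage-negative, Sca1-positive, Kit-positive), Flt3-negative, CD150-positive and CD48-positive, and in both it asked for Gata1. The labels used here do not say how Gata1 or Vwf was read in the sorter, the sex of the mice or whether each library had its own animals. The p-values therefore rest on a spread that may be partly technical. There was no Gata1-negative group, so the openness of the locus could not be set against cells that lack the marker.

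Gata1 is an X-linked gene for a zinc finger transcription factor that binds the GATA motif. It is needed for the maturation of red cells and megakaryocytes and is also active in mast cells and eosinophils. In mouse blood cells its expression is known to depend on a promoter before the erythroid first exon and on enhancer elements upstream of and within the gene, at which GATA factors themselves bind. MPP2 cells are multipotent progenitors with a lean toward the megakaryocyte and red cell lineages. Vwf encodes von Willebrand factor, a clotting protein of platelets and endothelium. The comparison asks whether the locus of the marker that both sorts share is open to the same degree with and without Vwf.

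The RefSeq start of Gata1 in the promoter table (GRCm38.p6, minus strand, chrX:7967911-7968160, the 250 bases before the start) is shown because the gene's own factor, and factors of the CACCC-binding class, are known to act at this promoter. Capitals mark GATA and CACCC on either strand.
Gata1 promoter: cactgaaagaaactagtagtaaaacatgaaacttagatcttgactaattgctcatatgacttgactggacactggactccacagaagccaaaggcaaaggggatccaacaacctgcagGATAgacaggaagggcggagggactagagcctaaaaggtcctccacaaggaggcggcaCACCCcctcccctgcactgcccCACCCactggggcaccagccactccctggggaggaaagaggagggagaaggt
The stretch holds CACCC at 2 places, and 52.0% of the 32851 promoter entries of that length hold CACCC or its reverse complement GGGTG. It holds GATA at 1 place, and GATA or TATC is in 53.6% of entries. The longer forms AGATAA and TGATAA, with their reverse complements, were found 0 times in it and in 9.99% and 7.94% of entries. These matches describe letters and are common in promoters of this length. Which deposited peak covers this stretch was not worked out, because the peaks are in mm9 and coordinates were not converted.

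From low to high coordinates the 5 peaks are called A to E here. Peak A lies at 7534620 to 7534835, on the lower side of the gene span. Peaks B (7544827 to 7545822) and C (7548017 to 7549086) lie inside the gene span, with 3.23 kb between their centres. Peaks D (7562013 to 7562270) and E (7562951 to 7563358) lie upstream of the gene span, with 1.01 kb between their centres. B and C were 996 and 1070 bp wide, and A, D and E were 216, 258 and 408 bp wide. The median width of tested peaks was 516 bp.

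The locus consisted of 2 very strong peaks and 3 weak ones. Signal is given as CPM, counts per 1000000 after TMM scaling, and levels of different peaks were compared per kb of peak. Averaged over the 8 libraries, peak C had 101.2 CPM per kb and peak B had 70.2 CPM per kb, where the median of the 97040 tested peaks was 9.13 CPM per kb. Peak C ranked 35 among all tested peaks and 4 among the 2177 tested peaks of chromosome X. Peak B ranked 222 among all and 9 on chromosome X. Peaks D, E and A had 10.9, 8.76 and 5.73 CPM per kb. Whether the sort used a reporter that carries Gata1 sequence, which would add counts at the locus, is not given in the labels, and its part in these levels was not tested. D and E were near the middle of the tested peaks, above 59.4% and 47.6% of them. Peak A, which was not itself tested, was above 20.6% of the tested peaks.

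**Figure D1:**
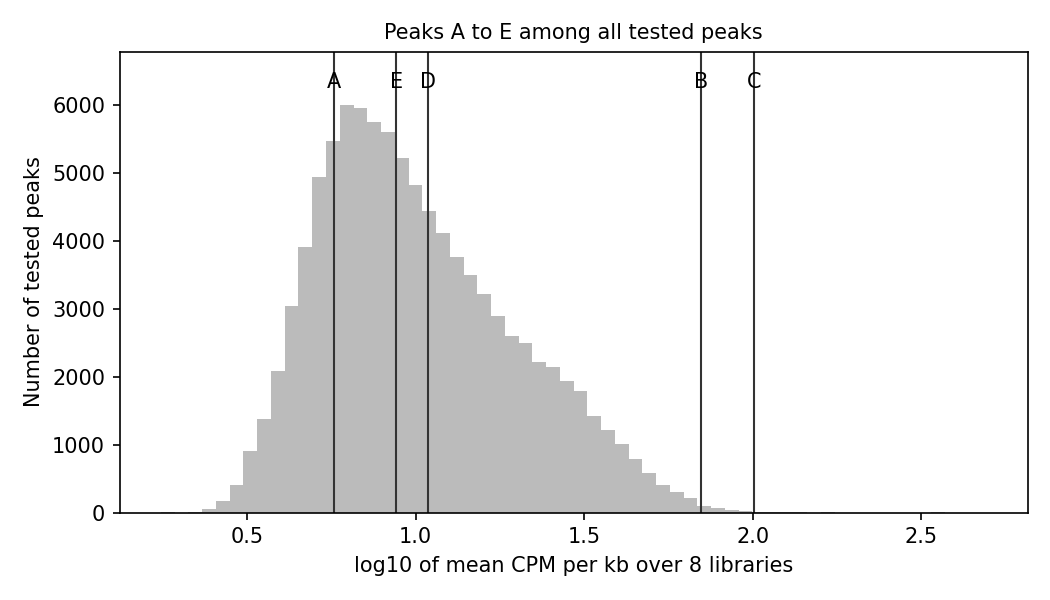
Histogram of the mean signal of the 97040 tested peaks (log10 of CPM per kb over 8 libraries), with vertical lines for peaks A to E. B and C stand in the upper tail at 70.2 and 101.2 CPM per kb, and A, D and E lie in the body of the distribution.

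Peaks B and C together held between 94.8% and 97.0% of the counts of the locus in every library. Counts summed over the 5 peaks ran from 770 to 1422 per library, out of total counts of 4628997 to 7753538. The sum over the peaks came to 187 ± 24.5 CPM for Vwf+Gata1+ and 185 ± 21.3 CPM for Vwf-Gata1+ cells (SD, n = 4 each). The log2 ratio of these means was 0.01, against a spread between libraries of 0.18 on the same scale, and it was given no test because it sums over chosen peaks. The lowest sum was 157 CPM in both groups, in replicate 1 of each, and the groups overlapped over nearly their whole range.

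**Figure D2:**
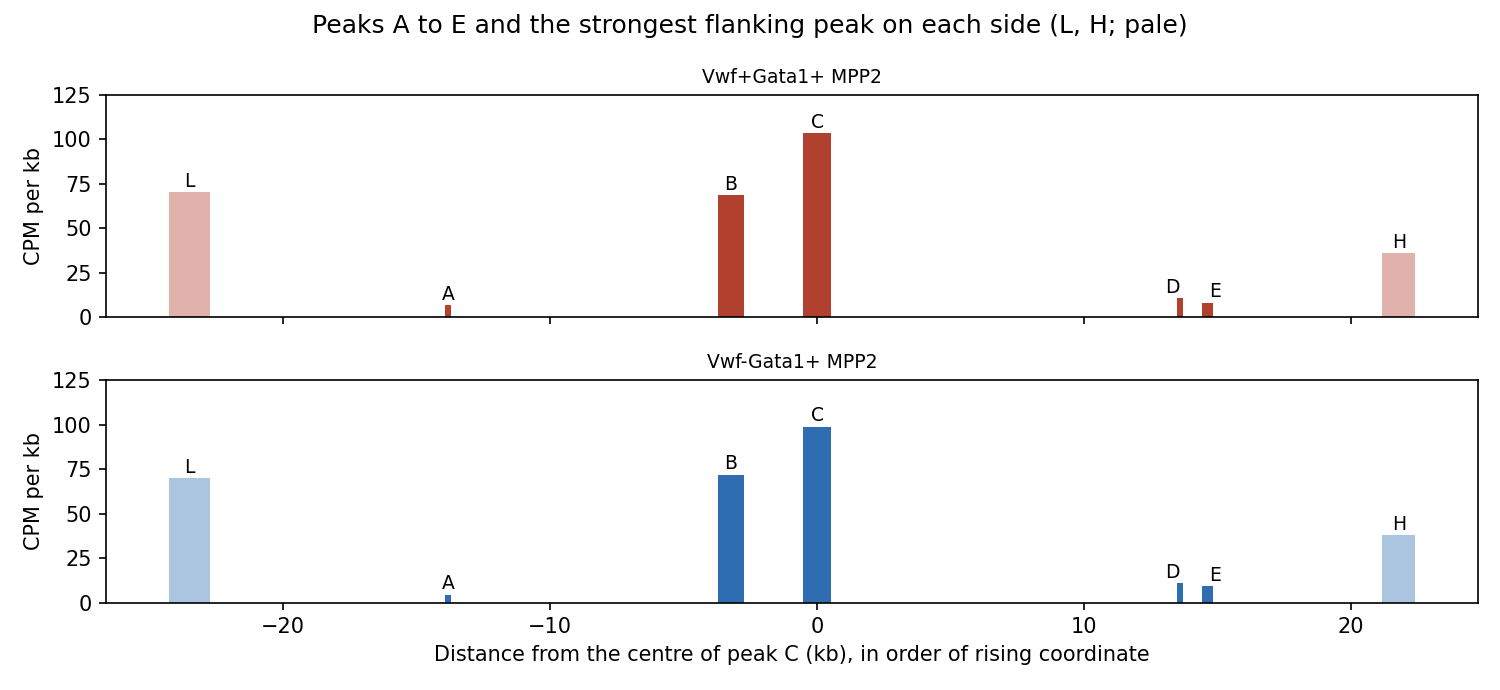
Mean signal of each peak in CPM per kb (vertical axis) against distance in kb from the centre of peak C (horizontal axis, bars drawn to the width of the peaks), for Vwf+Gata1+ cells above and Vwf-Gata1+ cells below. Pale bars are the strongest flanking peaks L and H. The order of heights, with C above B and both far above A, D and E, was the same in both subpopulations.

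No peak of the locus passed the threshold between the subpopulations in edgeR's quasi-likelihood test. Of the 5 peaks, 4 passed the filter on low counts and were tested. Of these 4, 0 passed an adjusted p of 0.05, where 0.0144% of all tested peaks did, and 0 had an unadjusted p under 0.05, where 6.72% of all tested peaks did. DESeq2 called 0 of the 4, where it called 0.0113% of all tested peaks, and limma-voom with quality weights called 0 of all 97040, so that its 0 of the 4 adds nothing. At an unadjusted p under 0.05 each gave 0 of the 4, where DESeq2 gave 3.47% and limma-voom 7.46% of all tested peaks. The libraries of the groups overlapped at each of the 4, where 3.88% of all tested peaks had groups apart. The median log2 fold change of the 4, as Vwf+Gata1+ minus Vwf-Gata1+, was -0.05 beside 0.00 (0.00389) for all tested peaks, with 1 higher and 3 lower.

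Peak C, the strongest of the locus, had 92.7, 119, 114 and 117 CPM in replicates 1 to 4 of Vwf+Gata1+ cells. In replicates 1 to 4 of Vwf-Gata1+ cells it had 89.4, 109, 122 and 103 CPM. Replicate 1 was the lowest library in both groups, and the highest single value was in Vwf-Gata1+ cells. The means were 111 ± 12.3 and 106 ± 13.4 CPM (SD, n = 4 each). The log2 fold change was 0.07 ± 0.09 (SE; edgeR adjusted p = 0.940). Its 95% interval ran from 7.60% lower to 19.2% higher signal in Vwf+Gata1+ cells. With 1 library left out, the log2 fold change ran from -0.0026 (without replicate 1 of the Vwf-Gata1+ group) to 0.15 (without replicate 1 of the Vwf+Gata1+ group), and with loess offsets it was 0.0065.

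Peak B had 57.8, 81.6, 55.0 and 78.6 CPM in replicates 1 to 4 of Vwf+Gata1+ cells. In those of Vwf-Gata1+ cells it had 59.6, 77.5, 78.0 and 71.5 CPM. Within Vwf+Gata1+ cells, replicates 1 and 3 were low and replicates 2 and 4 high, while in Vwf-Gata1+ cells replicate 1 alone was low. The means were 68.3 ± 13.8 and 71.7 ± 8.56 CPM (SD, n = 4 each). The log2 fold change was -0.06 ± 0.11 (SE; edgeR adjusted p = 0.962), with a 95% interval from 18.3% lower to 12.3% higher. Without replicate 1 or without replicate 3 of Vwf+Gata1+ cells the sign turned, to 0.02 in both fits, and no call arose.

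The upstream peaks D and E were weak, so their differences were less precisely measured. Peak D had 2.63, 2.44, 2.75 and 3.31 CPM in the Vwf+Gata1+ libraries and 2.74, 3.84, 2.15 and 2.63 CPM in the Vwf-Gata1+ libraries, from 11 to 25 counts a library. Its log2 fold change was -0.03 ± 0.27 (SE; edgeR adjusted p = 0.993), and its 95% interval ran from 33.3% lower to 43.4% higher. The values of Vwf+Gata1+ cells lay within the range of the Vwf-Gata1+ values.

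Peak E had 2.90, 4.69, 2.98 and 2.88 CPM in the Vwf+Gata1+ libraries and 4.18, 4.92, 3.12 and 2.92 CPM in the Vwf-Gata1+ libraries, from 13 to 32 counts a library. In Vwf+Gata1+ cells 3 libraries were nearly equal and replicate 2 stood above them, and in Vwf-Gata1+ cells replicates 1 and 2 were above replicates 3 and 4. The log2 fold change was -0.20 ± 0.26 (SE; edgeR adjusted p = 0.939), with a 95% interval from 39.2% lower to 24.9% higher. With 1 library left out it ran from -0.39 (without replicate 2 of the Vwf+Gata1+ group; edgeR adjusted p = 0.917) to -0.05 (without replicate 2 of the Vwf-Gata1+ group; edgeR adjusted p = 0.997).

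Peak A, on the lower side of the gene span, did not pass the filter, since only 1 of 8 libraries reached 10 counts. It had 8, 8, 6 and 15 counts in replicates 1 to 4 of Vwf+Gata1+ cells (1.05, 1.50, 1.38 and 2.16 CPM) and 9, 8, 5 and 3 counts in those of Vwf-Gata1+ cells (1.18, 1.23, 0.975 and 0.438 CPM). The highest value came from the Vwf+Gata1+ group and the lowest from the Vwf-Gata1+ group, each in replicate 4, and the groups overlapped. Fitted with no filter, its log2 fold change was 0.67 ± 0.41 (SE; edgeR adjusted p = 0.845).

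**Figure D3:**
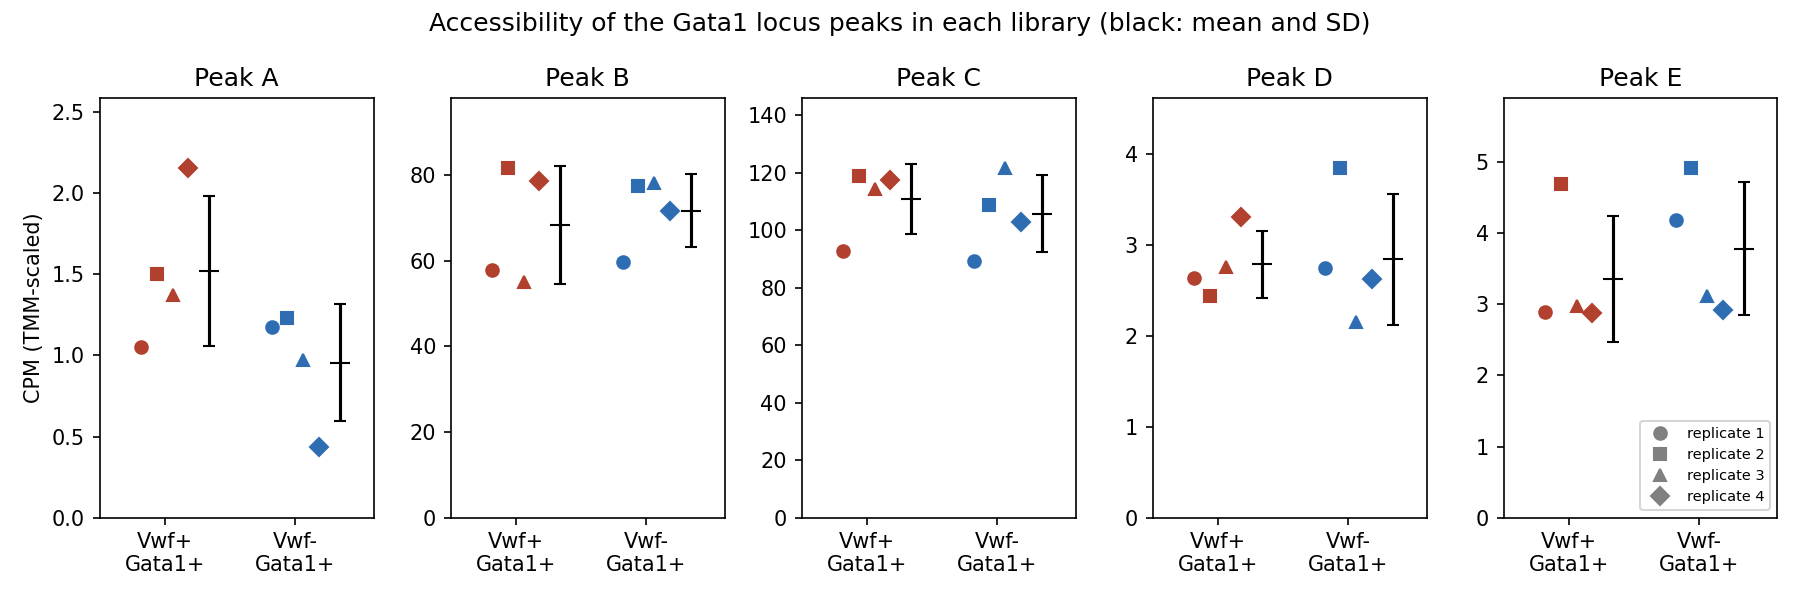
Signal of peaks A to E in CPM (vertical axes, each from 0) in each library, with a symbol for each replicate number and the group mean and SD in black. The 2 subpopulations overlap at each peak, and replicate 1 is the lowest Vwf-Gata1+ library at peaks B and C (59.6 and 89.4 CPM).

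**Figure D4:**
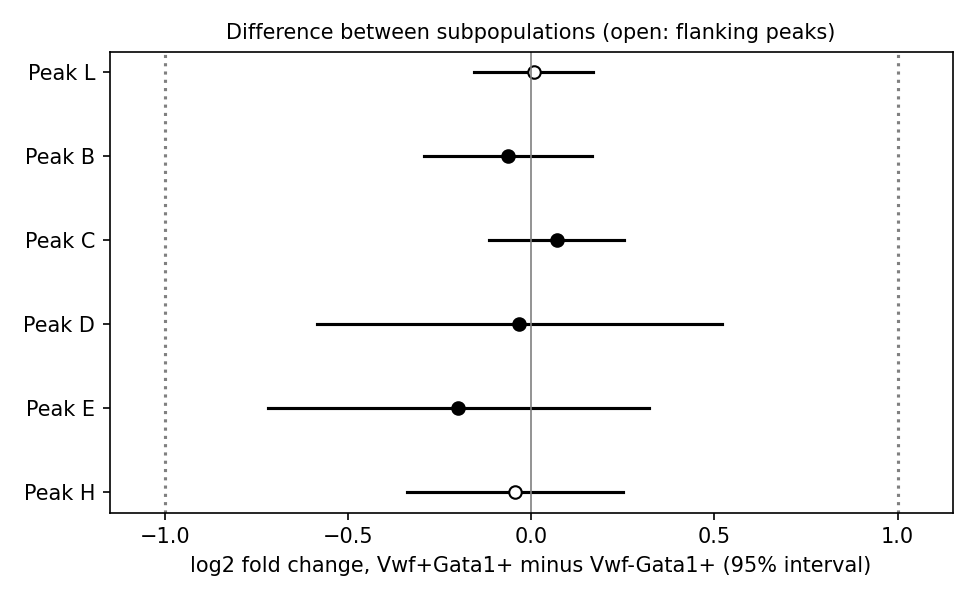
Log2 fold changes with 95% intervals for the 4 tested peaks of the locus (filled) and the flanking peaks L and H (open). All 6 intervals include 0 and lie within the dotted lines at a 2-fold difference in either direction. The intervals of 85.6% of all tested peaks lie within those limits. The intervals of B and C are narrower than those of D and E.

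The spread between libraries was set beside counting error. At peak B the coefficient of variation was 20.2% in Vwf+Gata1+ and 12.0% in Vwf-Gata1+ cells, where counting error alone gives 5.14% and 4.67%. At peak C it was 11.1% and 12.7%, against 3.95% and 3.84%. Peak L, the strongest flanking peak at lower coordinates, with about as many counts as C, had 5.10% and 7.39%, against 3.99% and 3.80%. How common such a spread above counting error is at other well-counted peaks was not worked out. At peaks D and E the spread of 13.4% to 26.4% was close to, or below, the counting error of 20.9% to 25.2%, and nothing can be read from the order of their libraries.

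Because the locus is X-linked, the chromosome X signal of each library was checked. Chromosome X held 1.88% ± 0.0458 of counts in Vwf+Gata1+ and 1.87% ± 0.0731 in Vwf-Gata1+ libraries (SD, n = 4 each; 2-sided exact permutation p = 0.886, where 4 against 4 libraries allow no p below 0.0286). Replicate 1 had the lowest share in each group, 1.81% and 1.77%. Chromosome Y peaks held 57 to 118 counts in every library. Per 1000 counts on chromosome X, the locus held 9.499 ± 1.02 counts in Vwf+Gata1+ and 9.53 ± 0.591 in Vwf-Gata1+ cells. A fit on chromosome X peaks alone gave log2 fold changes of 0.06 at peak C and -0.07 at peak B.

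Within 100 kb of the window lay 32 further peaks, 16 on each side, of which 27 were tested and 0 were called. Of the 27, 1 had an unadjusted p under 0.05, and the groups did not overlap at 1, beside the 6.72% and 3.88% of all tested peaks given above. On the upstream side 9 of 13 tested peaks had a negative and 4 a positive log2 fold change, with a median of -0.21. On the lower side 7 of 14 were positive and 7 negative, with a median of -0.01. Of all tested peaks, 49210 were positive and 47830 negative. On the lower side the strongest was peak L (7524263 to 7525804), with 70.1 CPM per kb, about the level of peak B. Its log2 fold change was 0.01 ± 0.08 (SE; edgeR adjusted p = 0.995). On the upstream side the strongest was peak H (7569717 to 7570949), with 37.0 CPM per kb. Its log2 fold change was -0.04 ± 0.14 (SE; edgeR adjusted p = 0.983).

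Peak B and the upstream peak H, whose centres are 25.0 kb apart, varied together from library to library. Peak H had 38.7, 54.2, 33.9 and 51.9 CPM in replicates 1 to 4 of Vwf+Gata1+ cells. In the same order it had 36.9, 53.8, 52.3 and 43.2 CPM in Vwf-Gata1+ libraries. The 3 libraries lowest at peak B, replicates 1 and 3 of Vwf+Gata1+ and replicate 1 of Vwf-Gata1+ cells, were also the 3 lowest at peak H. Over the 8 libraries Pearson's r of log2 CPM was 0.974 (exact permutation p = 0.00124, 0.0062 after adjustment over 10 relations) and Spearman's rho was 0.881 (exact permutation p = 0.00724, 0.0362 adjusted). Without the 2 libraries farthest from the median of peak B, replicates 3 and 1 of Vwf+Gata1+ cells, r was 0.970. This relation was chosen after the values were seen.

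The counts of peak B were 1.44 to 1.66 times those of peak H in every library. The coefficient of variation of this ratio was 3.86% in Vwf+Gata1+ and 6.55% in Vwf-Gata1+ cells, below the 8.21% and 7.46% that counting error gives. Among the 97039 other tested peaks of the genome, H ranked 5 by its r with B, and the median peak had an r of 0.01 (0.00767). The rank is given as a description over 8 libraries and so many peaks, and a shared cause of B and H was not tested.

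Over the same libraries, peak C had an r of 0.634 with peak B (exact permutation p = 0.105, 0.151 adjusted), and 0.949 with replicates 3 and 1 of Vwf+Gata1+ cells left out. With peak H its r was 0.615 (exact permutation p = 0.122, 0.152 adjusted), and 0.296 without both replicate 1 libraries. Its r with the share of a library's counts in the strongest 1% of peaks, a measure of how concentrated the signal was, reached 0.942 (exact permutation p = 0.000942, 0.0062 adjusted; rho 0.929, exact permutation p = 0.00223, 0.0223 adjusted). Without the 2 replicate 1 libraries, which were lowest on that share, r was 0.824. Peak C ranked 152 by CPM among the tested peaks. It is thus of the strong class that the share sums, although it was left out of the sum itself. Beyond the peaks given next, how other strong peaks went with the share was not worked out. This r is thus not shown to be particular to peak C. Peak L went the same way, with an r of 0.870 to the share (exact permutation p = 0.00977, 0.0326 adjusted), or 0.575 without replicate 1 of Vwf-Gata1+ and replicate 2 of Vwf+Gata1+ cells. For peak B the r with the share was 0.508 (exact permutation p = 0.207, 0.230 adjusted), and 0.911 once replicates 3 and 1 of Vwf+Gata1+ cells were left out. Peak H, which ranked 4150 by CPM, had an r of 0.488 with the share (exact permutation p = 0.230, 0.230 adjusted). Without replicate 3 of Vwf+Gata1+ and replicate 1 of Vwf-Gata1+ cells, the r of peak H was 0.732. The 2 libraries left out were those farthest from the median of each peak, so they differed between B and C. The values with libraries left out are therefore not a like comparison of B with C. The differences between these correlations were not tested.

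Replicate 3 of Vwf+Gata1+ cells was the library in which B and C parted. There the ratio of counts in B to those in C was 0.481, and in the other 7 libraries it was between 0.624 and 0.713. In that library peaks B and H were each the lowest of the 8, at 55.0 and 33.9 CPM, while C had 114 CPM, above its mean in both groups. It was also the library with the fewest total counts, 4628997, with 240 counts at B and 148 at H. The part of depth in this was not tested.

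**Figure D5:**
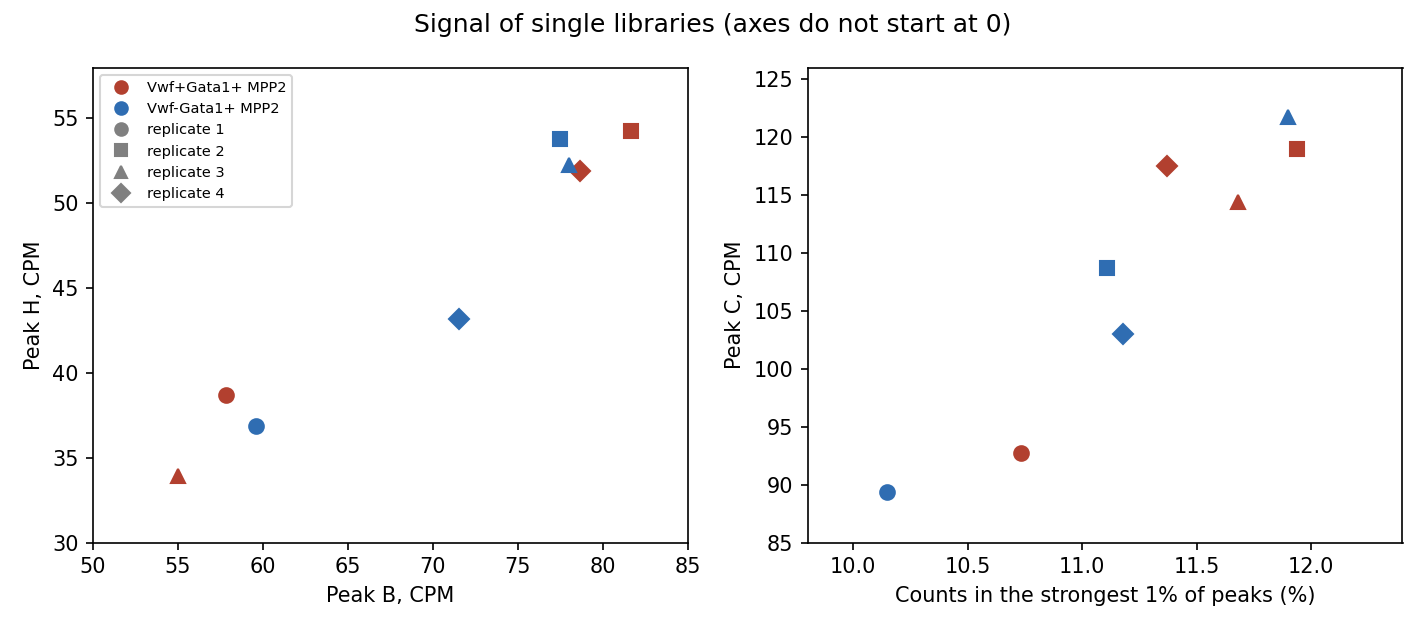
Left, peak H against peak B in CPM; right, peak C in CPM against the percent of counts in the strongest 1% of peaks. Each point is a library, with colour for the subpopulation and shape for the replicate number, and the axes do not start at 0. B and H lie along a line (r = 0.974), with 3 libraries at the low end from both subpopulations.

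Outside the locus, the 3 tested peaks most like its summed signal over the 8 libraries lay on chromosome 13 (116680253 to 116680892, r = 0.986), chromosome 17 (37088239 to 37089100, r = 0.985) and chromosome X (70193664 to 70194355, r = 0.984). Their mean signal was 3.66, 31.7 and 5.15 CPM, and the first and the last rest on as few as 12 and 20 counts in a library. Their log2 fold changes were 0.03, 0.03 and 0.07, and none passed the threshold in edgeR (adjusted p = 0.993, 0.985 and 0.984). They are named as a description of these 8 libraries, and the part of library depth and preparation in these r was not tested.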

How the data were processed

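The authors deposited counts per peak, 1 table with 134473 peaks and 8 libraries, and these were taken to be raw counts. The build (mm9) and the tools MACS2, Bowtie2, Picard, SAMtools, FastQC and Trim Galore are named in the submitters' processing notes, without roles or versions. The sources used here do not say if fragments or single reads were counted, if cut sites were shifted for Tn5, or how duplicates and peaks were handled. Groups came from the labelled cell type and replicate numbers from the titles.

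Libraries were scaled by TMM. All peaks kept by filterByExpr (minimum count 10, minimum total 15) were tested with edgeR's robust quasi-likelihood test, with Benjamini-Hochberg adjustment over all 97040 and a threshold of 0.05. The SE divides the absolute log2 fold change by the square root of F. The test was checked on simulated counts. Log2 CPM used a prior count of 2. The strongest 1% of peaks left out peaks A to E, L and H. Counting errors are those of Poisson counts.

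The naming rule took every peak of the locus, the strongest flanking peak on each side within 100 kb and the 3 peaks most like the summed signal more than 1 Mb away. The locus and these rules were chosen with earlier results of these data known. Markers of other cell types were not examined, since peaks were not assigned to genes. Alternatives were other scalings, filters and tools, a replicate block and each library left out. Software was Python 3.11.15 with scipy 1.17.1 and matplotlib 3.10.9, and R 4.3.3 with DESeq2 1.42.0, limma 3.58.1 and edgeR 4.0.16.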

Additional observations from a re-analysis of the deposited data

Results flagged for a closer look

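In Vwf+Gata1+ cells, replicate 2 lay far from the other libraries at peak E (7562951 to 7563358), with 4.69 CPM where the others had 2.88 to 2.98 CPM. It rests on 25 counts. In all, 36 sets of 4 libraries were checked in this way, and chance marks about 1 in 20 of them.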

How the results depend on the processing

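The count of peaks past the threshold at the locus was 0 in the main test and in each of 18 alternatives, where the lowest adjusted p was 0.695. Calls over all tested peaks were few too, with 14 of 97040 in the main test and 0 with limma-voom. Leaving out 1 library gave from 3 of 99792 to 76 of 100205, and the replicate block gave 511 of 97040. The alternative of the gene span alone reused 2 peaks of the main test. With so few calls, 0 at the locus was likely in any setting and says little about robustness. Log2 fold changes of peaks B, C and E kept their sign under the 9 other scalings, filters, tools and the block, from -0.11 to -0.05 for B, 0.01 to 0.08 for C and -0.22 to -0.17 for E, and that of peak D turned only with limma-voom (0.0063). Leaving out 1 library gave -0.15 to 0.02 for B, -0.0026 to 0.15 for C, -0.14 to 0.14 for D and -0.39 to -0.05 for E. Signs turned for B without replicate 1 (0.017) or 3 (0.020) of Vwf+Gata1+, for C without replicate 1 of Vwf-Gata1+, and for D without replicate 1 (0.0037) or 2 (0.024) of Vwf+Gata1+ or 2 of Vwf-Gata1+ cells (0.14). The cause was not tested. The log2 ratio of the summed signal ran from -0.05 to 0.09. The group difference in the chromosome X share, 0.005 percentage points, ran from -0.031 to 0.027 without 1 library, and turned sign without replicate 2 (-0.0075) or 3 (-0.0014) of Vwf+Gata1+ and replicate 1 of Vwf-Gata1+ cells. The r of peaks B and H, with alternatives chosen after seeing the data, was 0.967 to 0.973 with other scalings and 0.961 to 0.988 without 1 library.

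With the replicate number as a block, the log2 fold changes were -0.06 for B, 0.08 for C, -0.03 for D and -0.19 for E, with 0 calls, while calls over all peaks rose from 14 to 511. No label says that a number pairs libraries. Same-numbered libraries, each taken as its deviation from its group mean, had correlations of 0.301, 0.163, 0.0740 and 0.0103 for numbers 1 to 4. The closest library of the other group had the same number for 5 of 8. Each library had only 4 to choose from, and the 8 choices are not independent, since they use the same correlations. This count was not tested against chance, and no pairing was concluded from it.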
